A study of Mus musculus with 6 samples.

Results

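The genes described here are 37 histone acetyltransferases, bromodomain proteins and close cofactors, chosen by name and found as 37 of the 27179 gene numbers in a table of read counts. The cells came from the spleens of gBT-I tg mice kept SPF (specific pathogen free), a strain whose CD8+ T cells carry a transgenic receptor for a glycoprotein B peptide of herpes simplex virus. All 6 samples came from total spleen cells, which were activated in vitro with that peptide and LPS. The cells were given IL-2 on each of days 2 to 5 and harvested on day 6. The 3 control samples had no butyrate, and the 3 butyrate samples were given it from day 3. Whether the replicates were separate mice or cultures is not in the labels. The sources used here do not give the butyrate dose, the age or pooling of animals, or any sort of the cells before RNA extraction. The comparison asks how butyrate, a short-chain fatty acid of gut bacteria that inhibits histone deacetylases, changes expression in activated CD8+ T cells.

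Histone acetyltransferases move an acetyl group from acetyl-CoA onto lysines, and deacetylases take it off again. The bromodomain is a small fold with a pocket that binds acetylated lysine, so a protein that carries one can bring an enzyme, a remodeler or the transcription machinery to acetylated chromatin. In activated T cells these enzymes and readers act at the promoters and enhancers of genes that are switched on through the T cell receptor.

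Libraries held 5383380 to 6244350 counts, and the 3 counts that a count of 0 still allows were worth 0.480 to 0.557 CPM (counts relative to a TMM-scaled library total). This limit covers counting error only. Cd8a stood at 454 ± 62.1 CPM in control against 436 ± 55.1 CPM with butyrate (SD, n = 3, as for every mean below), so the gene that defines the CD8+ label was abundant in both groups. The 11 T cell markers examined summed to 6843 to 7142 CPM in control against 5941 to 7147 CPM with butyrate. Trac (2063 ± 362 and 2552 ± 593 CPM) and Thy1 (2023 ± 129 and 1757 ± 152 CPM) held the largest parts of this sum. In bulk RNA of this kind, fewer cells of a type and less RNA per cell cannot be told apart.

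With butyrate, most of these acetylation writers and readers were lower. By edgeR's quasi-likelihood test with an adjusted p under 0.05 over all 11740 genes tested, 25 of the 36 members that passed the filter on low counts fell and 1 rose, while 22.5% of all tested genes fell and 23.5% rose (45.9% together). Brpf3, Kat2b, Crebbp, Kat6b and Atad2b fell by at least 2-fold, which makes 5 of 36 members against 3.33% of all tested genes. Brwd1 was the member that rose. Members that stayed uncalled were Kat8, Kat2a, Hat1, Naa10, Ep300, Ncoa1, Brpf1, Brd2, Baz1b and Trim28. Cecr2, the subunit of a remodeler named for it, was the member that did not pass the filter, with 0 counts in 5 libraries and 1 count in butyrate replicate 3.

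The median log2 fold change (butyrate over control, log2 change below) was -0.41 over the 36 members and 0.00 over all tested genes. Summed over the members, the control libraries held 4900, 4972 and 4680 CPM and the butyrate libraries 3971, 3826 and 3626 CPM. Every butyrate library was below every control library in this sum, and the same held for 27 members taken singly, a pattern seen in 28.2% of tested genes. For 3 members, Brwd1, Ep300 and Ncoa1, every butyrate library was above every control library, as for 28.9% of tested genes.

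**Figure D1:**
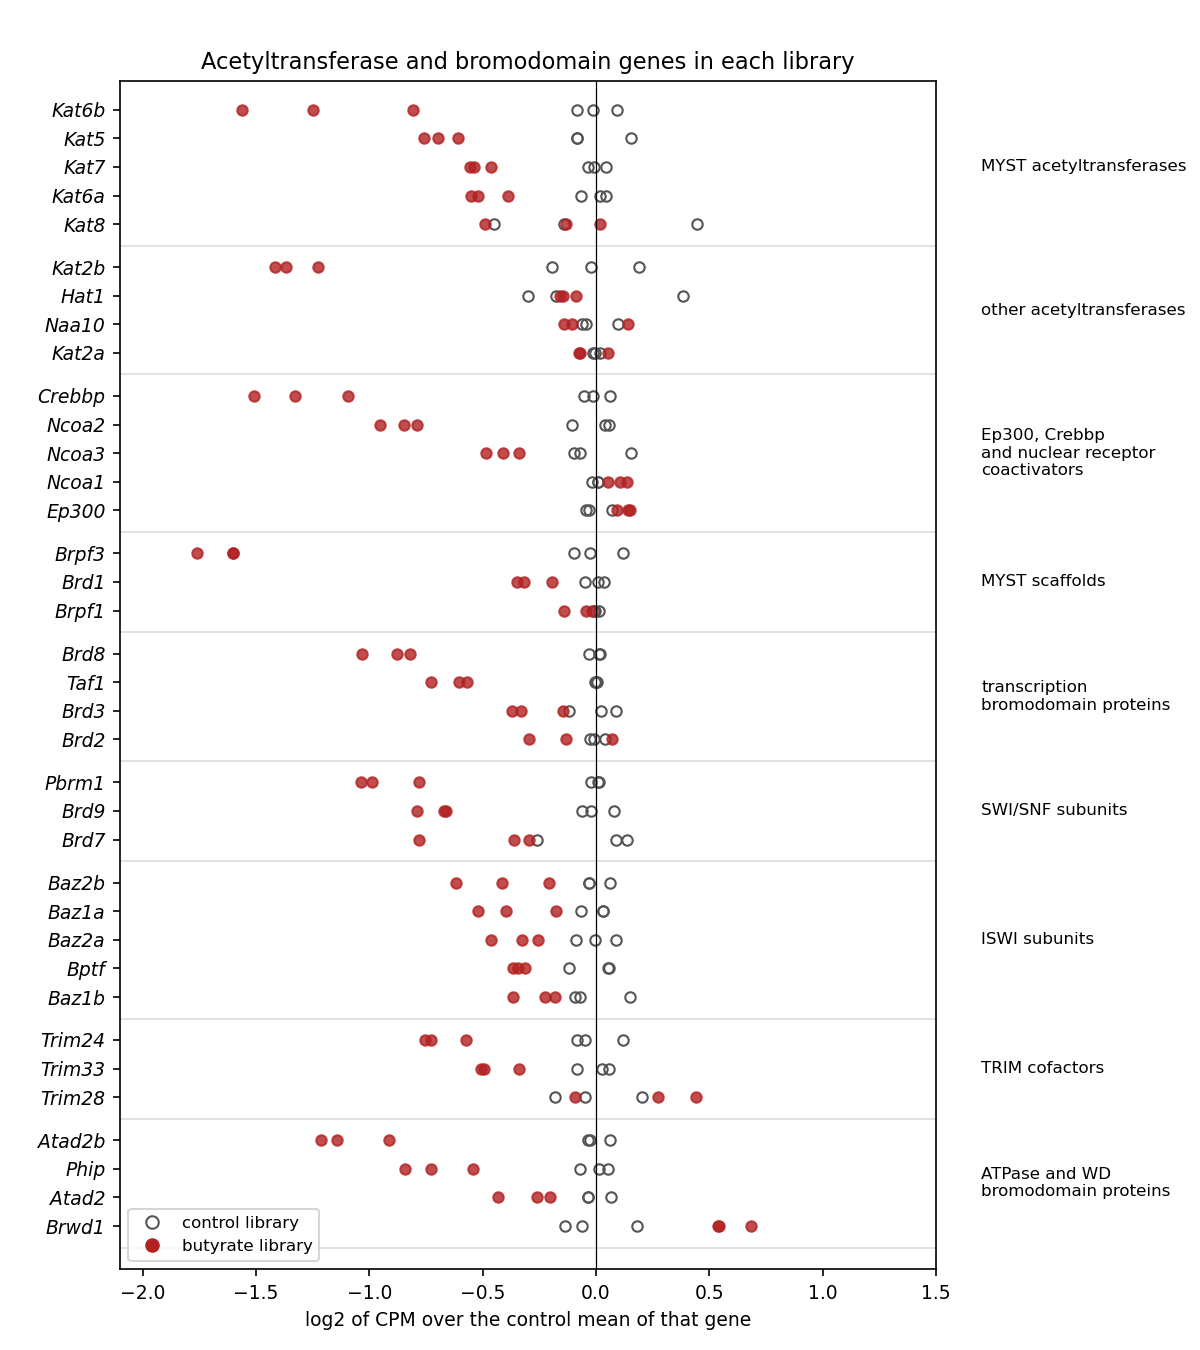
Each row is a member gene and each point a library, with open circles for the 3 control and filled circles for the 3 butyrate libraries. The horizontal axis is the log2 of the library's CPM over the mean control CPM of that gene, and rows are grouped by role. Filled points lie left of all open points for 27 of the 36 genes shown and right of them for Brwd1, Ep300 and Ncoa1.

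The share of genes called lower varied with length and abundance over the whole table, and the members are mostly long and abundant. Of the members, 27 of 36 were in the longest tertile of tested genes by exon length and 22 in the most abundant tertile. In the whole table, 29.1% of the longest tertile and 31.0% of the most abundant tertile were called lower, and 39.1% of the 1564 genes that were in both. Of the 18 members in both tertiles, 14 were called lower, with a median log2 change of -0.35 beside -0.17 for all genes of that class. The part of length and abundance in the members' falls was not tested further.

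**Figure D2:**
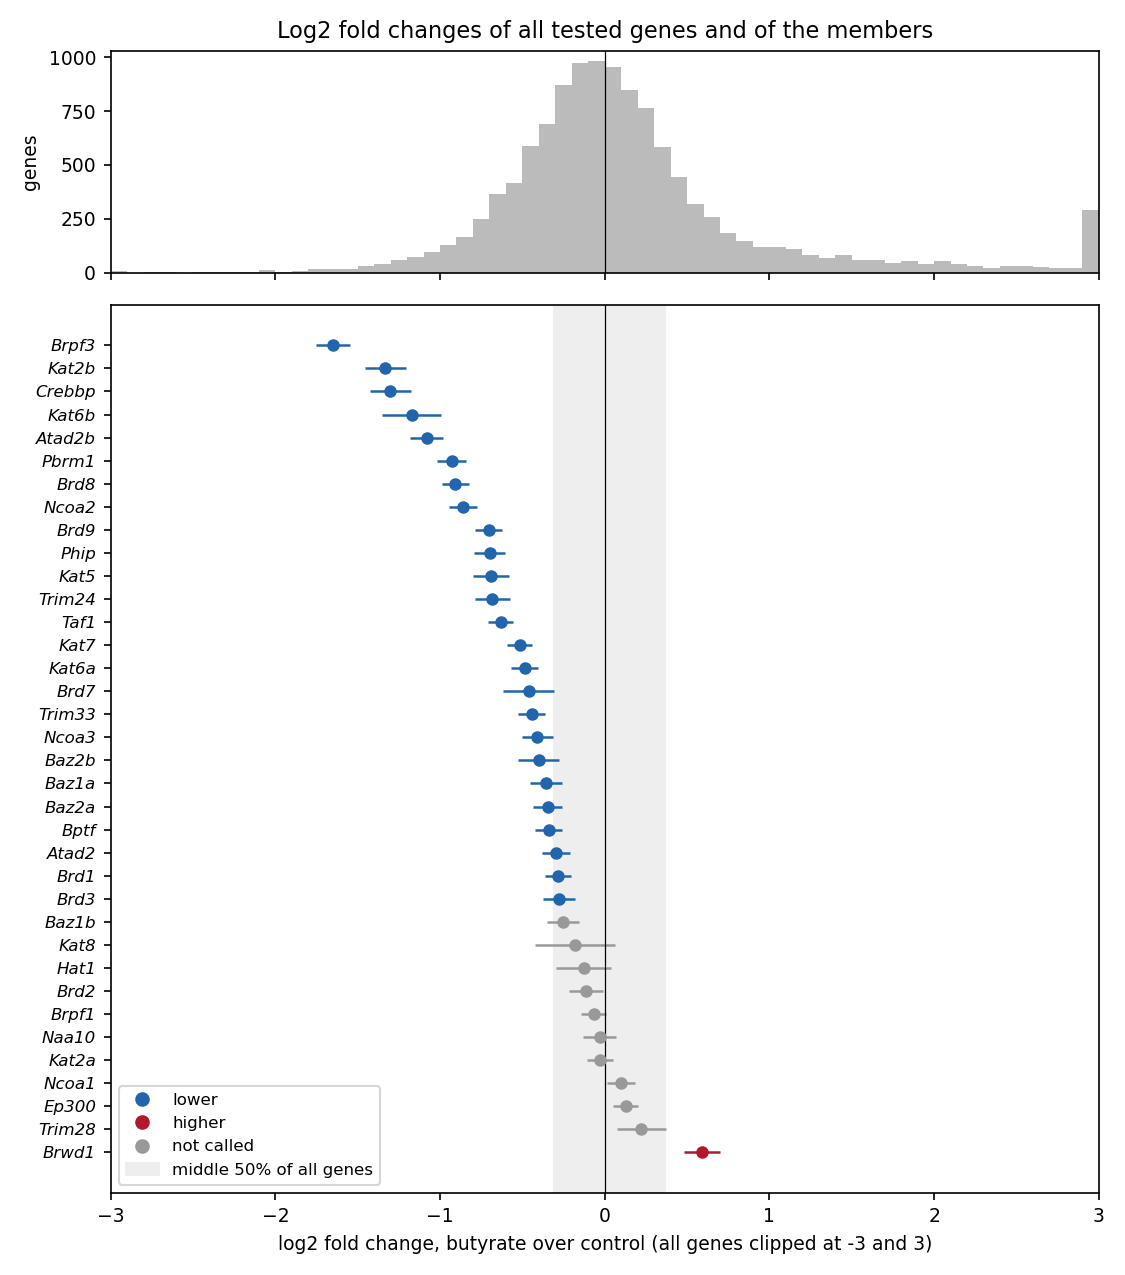
The upper panel is a histogram of the log2 change over all tested genes, with values beyond -3 and 3 gathered at the ends. Points below give the log2 change of each of the 36 tested members, butyrate over control, with bars of 1 standard error and colours for the call by edgeR. The shaded band spans the quartiles of all 11740 tested genes, from -0.31 to 0.36. Brpf3 stands lowest at -1.65 and Brwd1 highest at 0.59.

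The start regions of members that fell and members that did not are shown to let their letters be compared. RefSeq promoter windows of 300 bases (250 before and 50 after the start, GRCm38.p6) were at hand for 29 of the 37 members, and Atad2, Baz1a, Brd8, Cecr2, Kat6a, Ncoa2, Ncoa3 and Trim33 had none. The 4 sequences below come from 2 members that fell, Brpf3 and Kat7, and 2 that were not called, Trim28 and Kat2a, each pair with 1 GC-rich and 1 less GC-rich window. Each sequence is printed 5′ to 3′ on the gene's strand, stops before the gene's first base, and lies at chr17:28800876-28801089 (plus strand) for Brpf3, chr11:95310247-95310496 (minus) for Kat7, chr7:13023902-13024151 (plus) for Trim28 and chr11:100712486-100712717 (minus) for Kat2a. Capitals mark the GC box, GGGCGG on either strand, a run of letters that transcription factors of the Sp family can bind.
Brpf3: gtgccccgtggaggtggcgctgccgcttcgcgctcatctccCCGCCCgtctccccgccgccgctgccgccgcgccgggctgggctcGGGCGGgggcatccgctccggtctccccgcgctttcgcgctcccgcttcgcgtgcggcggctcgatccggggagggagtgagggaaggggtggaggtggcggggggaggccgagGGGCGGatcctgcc
Kat7: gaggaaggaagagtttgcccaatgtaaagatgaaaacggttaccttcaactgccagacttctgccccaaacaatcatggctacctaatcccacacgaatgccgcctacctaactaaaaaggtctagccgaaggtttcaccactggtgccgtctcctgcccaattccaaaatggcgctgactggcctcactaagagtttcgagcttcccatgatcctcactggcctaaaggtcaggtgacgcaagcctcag
Trim28: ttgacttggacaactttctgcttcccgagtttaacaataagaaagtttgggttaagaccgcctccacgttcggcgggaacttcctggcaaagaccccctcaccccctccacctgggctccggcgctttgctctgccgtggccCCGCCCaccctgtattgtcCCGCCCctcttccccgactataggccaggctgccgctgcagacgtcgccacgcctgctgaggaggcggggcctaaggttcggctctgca
Kat2a: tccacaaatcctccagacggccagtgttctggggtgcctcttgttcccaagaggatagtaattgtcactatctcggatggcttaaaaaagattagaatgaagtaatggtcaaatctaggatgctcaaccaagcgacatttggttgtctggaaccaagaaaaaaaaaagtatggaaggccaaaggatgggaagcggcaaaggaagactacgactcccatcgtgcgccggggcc

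The window of Brpf3 was 78.7% G or C with 40 CpG pairs, and that of Trim28 64.0% with 23. The windows of Kat7 (53.0%, 14 CpG pairs) and Kat2a (54.3%, 19 CpG pairs) held no GC box. The 4 windows were chosen to hold high and low GC content on each side of the call. Over all windows at hand, the median was 70% G or C with 32 CpG pairs for members called lower and 64.0% with 24 for members not called, with ranges of 41.7% to 82.0% and 48.3% to 84.7%. The median was 60.7% with 21 CpG pairs over the windows of all tested genes. Over the 18 members called lower that had a window, the GC box was in 16 of 23 windows, and over the 10 members not called in 11 of 13. It was in 63.3% of the windows of all tested genes and in 35.7% of all 32851 windows. CCAAT was in 6 of 23 and 5 of 13 windows, against 38.1% for tested genes and 37.4% for all. The ETS motif CCGGAAG was in 5 of 23 and 3 of 13, against 18.7% and 8.86%, and the E-box CACGTG in 3 of 23 and 1 of 13, against 10.2% and 7.15%. Motifs were searched on both strands, no motif contains another, and a match of letters is not a binding site. The counts and medians are over windows and not genes. Some members have several windows, and those of Brd9 and of Kat6b overlap almost wholly yet are counted apart.

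Among acetyltransferases of the MYST family, 4 of 5 fell, against 22.5% of all tested genes. Kat6b, which encodes a histone H3 acetyltransferase that works in a complex with a BRPF scaffold (gene 54169, chromosome 14, 21499216 to 21672478), was at 27.9, 24.7 and 26.0 CPM in control replicates 1 to 3 and at 15.0, 11.0 and 8.87 CPM with butyrate. Every butyrate library was well below every control library, at 44.4% of the control mean. Its log2 change was -1.17 (SE 0.179, edgeR adjusted p = 0.000931), on 133 to 160 control counts and 48 to 81 butyrate counts. Kat5, the enzyme of the TIP60 complex, which also serves DNA repair, was at 43.4, 43.4 and 51.3 CPM in control against 30.1, 28.4 and 27.2 CPM with butyrate. The groups were apart, and Kat5 changed by -0.69 log2 units (SE 0.108, edgeR adjusted p = 0.00102).

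Kat7 and Kat6a fell too, and Kat8 was the MYST member that was not called. Kat7, which acetylates histones H3 and H4 and has a part in DNA replication, stood at 193, 199.8 and 189 CPM in control against 141, 134 and 132 CPM with butyrate (log2 change -0.52, SE 0.0744, edgeR adjusted p = 0.000691). Kat6a, the close relative of Kat6b, went from 237 ± 9.28 to 169 ± 10.2 CPM (log2 change -0.49, adjusted p = 0.00145). Both genes were lower in each butyrate library than in any control library. Kat8, the histone H4 acetyltransferase of the MSL and NSL complexes, was at 10.1, 18.7 and 12.5 CPM in control against 12.6, 13.9 and 9.79 CPM with butyrate. Its groups overlapped and it was not called (log2 change -0.18, adjusted p = 0.57), and the sign turned to 0.10 without control replicate 2, the highest of the 6 libraries.

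Of the related pair that powers the SAGA and ATAC complexes, Kat2b fell and Kat2a was not called. Kat2b, also known as PCAF (gene 18519, chromosome 17, 53566774 to 53672721), was at 60.7, 46.6 and 52.4 CPM in control against 22.7, 20.6 and 19.96 CPM with butyrate. The lowest control library held over 2 times the CPM of the highest butyrate library, and the log2 change was -1.33 (SE 0.125, edgeR adjusted p = 9.95e-05). Kat2a, also known as GCN5 (gene 14534, chromosome 11, 100704746 to 100712485), was at 66.8, 65.3 and 65.7 CPM in control against 68.4, 62.8 and 62.6 CPM with butyrate. The groups overlapped, with a log2 change of -0.03 (SE 0.0805, adjusted p = 0.787).

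Neither Hat1, which acetylates new histone H4 before it is placed on DNA, nor Naa10, the catalytic subunit of the NatA complex that acetylates protein N-termini, was called. Hat1 stood at 45.0, 72.3 and 49.0 CPM in control against 50.1, 52.1 and 49.7 CPM with butyrate, and Naa10 at 91.4 ± 5.64 and 89.6 ± 9.79 CPM. Control replicate 2 was high for Hat1 as it was for Kat8, and without it the log2 change of Hat1 went from -0.13 to 0.11. For Naa10 it was -0.03 with all libraries and 0.03, 0.02 and 0.005 without control replicate 2, butyrate replicate 2 and butyrate replicate 3.

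Of the large coactivator acetyltransferases p300 and CBP, the second, encoded by Crebbp, fell and the first, encoded by Ep300, was not called. Crebbp (gene 12914, chromosome 16, 4081334 to 4213957) was at 47.9, 44.1 and 45.4 CPM in control against 21.5, 18.2 and 16.1 CPM with butyrate. All butyrate libraries were far below the lowest control library, at 40.6% of the control mean, and the log2 change was -1.30 (SE 0.122, edgeR adjusted p = 0.000101). Ep300 (gene 328572, chromosome 15, 81586209 to 81652077) was at 221, 205 and 204 CPM in control against 232, 224 and 233 CPM with butyrate. Each butyrate library was above each control library, but the difference was small and not called (log2 change 0.13, SE 0.0755, edgeR adjusted p = 0.196). With upper quartile scaling, under which 61.8% of all calls were higher rather than 51.1%, Ep300 was called higher (log2 change 0.21, adjusted p = 0.0485).

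The nuclear receptor coactivators, which join hormone receptors to Ep300 and Crebbp, fell in 2 of 3 cases, against 22.5% of all tested genes. Ncoa2 was at 163, 165 and 147 CPM in control against 87.8, 91.3 and 81.7 CPM with butyrate. That is 55.0% of the control mean, with the groups far apart (log2 change -0.86, SE 0.0851, edgeR adjusted p = 0.000122). Ncoa3 went from 158 ± 15.6 to 119 ± 5.87 CPM (log2 change -0.41, adjusted p = 0.0068). Ncoa1 stood at 38.2, 38.9 and 38.9 CPM in control against 41.6, 42.5 and 40.1 CPM with butyrate, slightly higher in each butyrate library and not called (log2 change 0.10, adjusted p = 0.381).

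The scaffolds that hold MYST enzymes, Brd1, Brpf1 and Brpf3, included the deepest fall of all members. Brpf3 (gene 268936, chromosome 17, 28801126 to 28838789), whose sequence before its start is printed above, was at 82.1, 74.2 and 70.7 CPM in control against 25.0, 24.9 and 22.4 CPM with butyrate. Butyrate libraries held 31.8% of the control mean, and the log2 change was -1.65 (SE 0.101, edgeR adjusted p = 2.64e-05). Its paralog Brpf1 (gene 78783, chromosome 6, 113306863 to 113324862) was at 122, 123 and 122 CPM in control against 121, 119 and 111 CPM with butyrate. The Brpf1 groups just failed to overlap and the gene was not called (log2 change -0.07, adjusted p = 0.491). Brd1 went from 163 ± 4.69 to 133 ± 7.71 CPM (log2 change -0.29, edgeR adjusted p = 0.0164).

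Among bromodomain proteins of the transcription machinery, 3 of 4 fell, against 22.5% of all tested genes. Brd8, a subunit of the TIP60 complex beside Kat5, was at 139.9, 136 and 139.7 CPM in control against 75.3, 78.4 and 67.6 CPM with butyrate (log2 change -0.91, SE 0.0834, edgeR adjusted p = 9.02e-05). Taf1, the largest subunit of the general factor TFIID (gene 270627, chromosome X, 101527572 to 101601789), was at 148, 149 and 148 CPM in control against 97.5, 99.9 and 89.4 CPM with butyrate (log2 change -0.63, adjusted p = 0.000323). In both genes the 3 control libraries lay close together and all 3 butyrate libraries far below them.

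The BET proteins Brd2 and Brd3 bind acetylated histones and promote transcript elongation. Brd2 was at 383, 371 and 366 CPM in control against 392, 341 and 304 CPM with butyrate, so that 1 butyrate library was the highest of all and 2 were the lowest, and it was not called (log2 change -0.11, adjusted p = 0.396). Brd3 was at 85.0, 88.8 and 76.9 CPM in control against 75.6, 66.5 and 64.7 CPM with butyrate. The control library nearest to the butyrate libraries lay just above the highest of them, and the call was close to the threshold (log2 change -0.28, SE 0.0964, edgeR adjusted p = 0.0423).

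All 3 members that belong to SWI/SNF remodelers fell, against 22.5% of all tested genes. These machines slide or evict nucleosomes, with Pbrm1 and Brd7 in the PBAF form and Brd9 in the non-canonical form. Pbrm1 (gene 66923, chromosome 14, 31019138 to 31121592) was at 205, 199.9 and 204 CPM in control against 102, 118 and 98.9 CPM with butyrate. That is 52.5% of the control mean (log2 change -0.93, SE 0.0885, edgeR adjusted p = 0.000106). Brd9 was at 90.5, 84.6 and 82.2 CPM in control against 54.2, 49.7 and 54.0 CPM with butyrate (log2 change -0.71, adjusted p = 0.000288), and for both genes the groups were far apart. Brd7 was at 47.3, 49.0 and 37.1 CPM in control against 34.6, 36.3 and 25.9 CPM with butyrate. In Brd7 replicate 3 was the lowest library of each group, and the groups lay close (log2 change -0.46, SE 0.155, adjusted p = 0.0376). Summed over the 3 genes, control libraries held 323 to 343 CPM and butyrate libraries 179 to 204 CPM.

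The subunits of ISWI remodelers, which space nucleosomes, had small log2 changes. Of the 5 tested, Bptf, Baz1a, Baz2a and Baz2b fell, by 0.34 to 0.40 on the log2 scale, against 22.5% of all tested genes. For all 5 every butyrate library was below every control library, as for 28.2% of tested genes. Bptf, the reader of the NURF remodeler, was at 273, 272 and 241 CPM in control against 206, 211 and 203 CPM with butyrate (log2 change -0.34, SE 0.0815, edgeR adjusted p = 0.00867). Baz2a, of the complex that silences ribosomal RNA genes, went from 207 ± 12.9 to 163 ± 11.9 CPM (adjusted p = 0.0118). Baz1a, of the ACF and CHRAC remodelers, stood at 135 ± 5.16 and 106 ± 12.9 CPM (adjusted p = 0.0176), and Baz2b at 30.3 ± 1.16 and 22.9 ± 3.27 CPM (adjusted p = 0.0283).

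Baz1b, of the WICH remodeler, had the highest CPM of all members, at 498, 589 and 505 in control and 468, 453 and 412 with butyrate. The groups did not overlap, yet the gene was not called (log2 change -0.25, SE 0.0973, edgeR adjusted p = 0.0586). With the replicate number as a block it was called lower, with the same log2 change of -0.25 and an adjusted p of 0.0323, and with no filter on low counts its adjusted p was 0.0335. Without control replicate 2, its highest library, the log2 change was -0.17 and the adjusted p 0.211.

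The TRIM cofactors of the TIF1 family recruit other regulators to chromatin, and 2 of 3 fell, against 22.5% of all tested genes. Trim24 was at 46.1, 40.1 and 41.0 CPM in control against 28.5, 25.6 and 25.1 CPM with butyrate (log2 change -0.68, SE 0.106, edgeR adjusted p = 0.000994). Trim33 was at 136, 139 and 126 CPM in control against 94.1, 106 and 95.0 CPM with butyrate (log2 change -0.44, adjusted p = 0.00275). Neither gene's groups overlapped. Trim28, the corepressor of KRAB zinc finger proteins, was at 233, 276 and 212 CPM in control against 326, 225 and 290.1 CPM with butyrate. Butyrate replicate 2 lay within the control range and the gene was not called (log2 change 0.22, SE 0.148, adjusted p = 0.245).

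Brwd1 and Phip, large proteins with WD repeats and bromodomains, moved in opposite directions. Brwd1 (gene 93871, chromosome 16, 95992089 to 96082703) was at 40.7, 34.3 and 32.6 CPM in control against 57.7, 52.3 and 52.1 CPM with butyrate. Every butyrate library was above every control library, at 151% of the control mean (log2 change 0.59, SE 0.109, edgeR adjusted p = 0.00245). Phip (gene 83946, chromosome 9, 82866159 to 82981668) was at 107, 117 and 114 CPM in control against 68.1, 77.4 and 62.8 CPM with butyrate. Here every butyrate library was below every control library (log2 change -0.70, SE 0.0961, adjusted p = 0.000556).

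The AAA ATPases with a bromodomain, Atad2 and Atad2b, both fell. Atad2b (gene 320817, chromosome 12, 4914404 to 5047396) was at 79.4, 84.4 and 78.8 CPM in control against 36.6, 43.0 and 34.9 CPM with butyrate. That is 47.2% of the control mean, with no overlap (log2 change -1.08, SE 0.1, edgeR adjusted p = 9.52e-05). Atad2, which binds acetylated histone H4 near replicating DNA and is abundant in dividing cells, was at 204, 205 and 219 CPM in control against 175, 182 and 155 CPM with butyrate (log2 change -0.29, adjusted p = 0.0222). Of 20 markers of dividing cells, 9 were lower and 1, Mcm6, was higher, against 22.5% and 23.5% of all tested genes. The 9 were Mki67, Ccna2, Ccnb1, Ccnb2, Aurka, Aurkb, Plk1, Bub1 and Tyms. Not called were Top2a, Cdk1, Birc5, Rrm2, Pcna, Mcm2, Mcm3, Mcm4, Mcm5 and Mcm7. The list summed to 9295 to 9708 CPM in control against 6714 to 8606 CPM with butyrate. Mki67 held the largest part, at 3228 ± 102 and 2412 ± 393 CPM. The part of dividing cells in the members' falls was not tested.

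Of the 25 falls, 19 kept their call under every change of scaling, filter, tool or replicate block and without each single library, and 6 near the threshold did not. Against a fold of 1.5 (glmTreat), a stricter question, 8 members were called lower, and 4.17% of tested genes were. These were Kat6b, Kat2b, Crebbp, Ncoa2, Brpf3, Brd8, Pbrm1 and Atad2b, while Brwd1 was not called higher under it, as 9.4% of tested genes were. The 6 less stable falls were those of Brd1, Brd3, Brd7, Baz1a, Baz2b and Atad2, and all 6 lost the call with upper quartile scaling, at edgeR adjusted p values of 0.0528 to 0.126. Brd3 was also not called with total counts (adjusted p = 0.0525), when 3 libraries had to reach 5 CPM (0.0606) and with DESeq2 (0.0898), nor was Baz2b with DESeq2 (0.0709).

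Single libraries mattered to the same 6 genes, though none changed sign. Without control replicate 1, edgeR's adjusted p was 0.0597 for Brd1, 0.1 for Brd3, 0.103 for Brd7, 0.0603 for Baz1a and 0.0796 for Baz2b. Without control replicate 2 it was 0.0575 for Brd1, 0.135 for Brd3, 0.122 for Brd7, 0.0625 for Baz2b and 0.0507 for Atad2. Without control replicate 3 it was 0.0637 for Baz1a, 0.06 for Baz2b and 0.0808 for Atad2. Baz2b had an adjusted p of 0.0594 without butyrate replicate 1, and without butyrate replicate 2 it was 0.115 for Brd3 and 0.0569 for Baz1a. Without butyrate replicate 3 it was 0.116 for Brd3, 0.101 for Brd7, 0.0825 for Baz2b and 0.061 for Atad2.

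Several members are related to each other, and the balance within 12 pairs was taken in each library as the log2 ratio of their counts. Some pairs can fill the same place in a complex, while Brd7 and Brd9, like Baz1a and Baz1b, belong to different remodelers. In 8 pairs the control and butyrate libraries did not overlap (exact two-sided permutation p = 0.1, the smallest that 3 against 3 libraries can give, and 0.15 adjusted over the 12 pairs). Among single tested genes, every butyrate library was below every control library in 28.2% and above in 28.9%. The share over pairs of other genes was not taken, so the 8 pairs cannot be set apart from it. In Brpf1 over Brpf3 the ratio was 0.57, 0.73 and 0.78 in control and 2.26, 2.23 and 2.29 with butyrate, the widest shift. Counted per length of exon, Brpf1 made up 70.8% ± 1.62 of the pair in control and 87.9% ± 0.221 with butyrate. The ratio of Ep300 over Crebbp was 2.19, 2.21 and 2.16 in control and 3.41, 3.59 and 3.82 with butyrate, and the share of Ep300 per length went from 83.8% ± 0.255 to 93.3% ± 0.907.

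Kat2a was in excess of Kat2b per length of exon in control, and more so with butyrate. Their log2 ratio was 0.14, 0.48 and 0.32 in control and 1.57, 1.59 and 1.63 with butyrate, and per length of exon Kat2a made up 65.5% ± 2.74 and 82.4% ± 0.319 of the pair. For Brwd1 over Phip the ratio was -1.39, -1.76 and -1.79 in control and -0.24, -0.56 and -0.27 with butyrate. Brwd1 thus held 19.0% ± 2.45 of that pair per length in control and 36.5% ± 2.87 with butyrate. In the 4 pairs described so far the first-named gene held a larger share in every butyrate library than in any control library, and Phip kept more than Brwd1 throughout.

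Smaller shifts without overlap were those of Atad2 over Atad2b (a difference of 0.78 between group means), Kat6a over Kat6b (0.69), Trim28 over Trim33 (0.66) and Ncoa1 over Ncoa3 (0.50). Groups overlapped in the other 4 pairs. The difference was 0.16 for Brd2 over Brd3 (exact permutation p = 0.2, adjusted 0.267), 0.24 for Brd7 over Brd9 (p = 0.3, adjusted 0.36, a test that does not use the replicate numbers), 0.06 for Baz2a over Baz2b (p = 0.6, adjusted 0.655) and -0.11 for Baz1a over Baz1b (p = 0.7, adjusted 0.7). For Brd7 over Brd9 the ratio was -0.93, -0.78 and -1.14 in control and -0.64, -0.45 and -1.05 with butyrate, so it was higher with butyrate in 3 of 3 libraries against the control of the same number. How reads that match both paralogs were counted could not be learned from the labels, and the split within a pair carries that uncertainty.

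**Figure D3:**
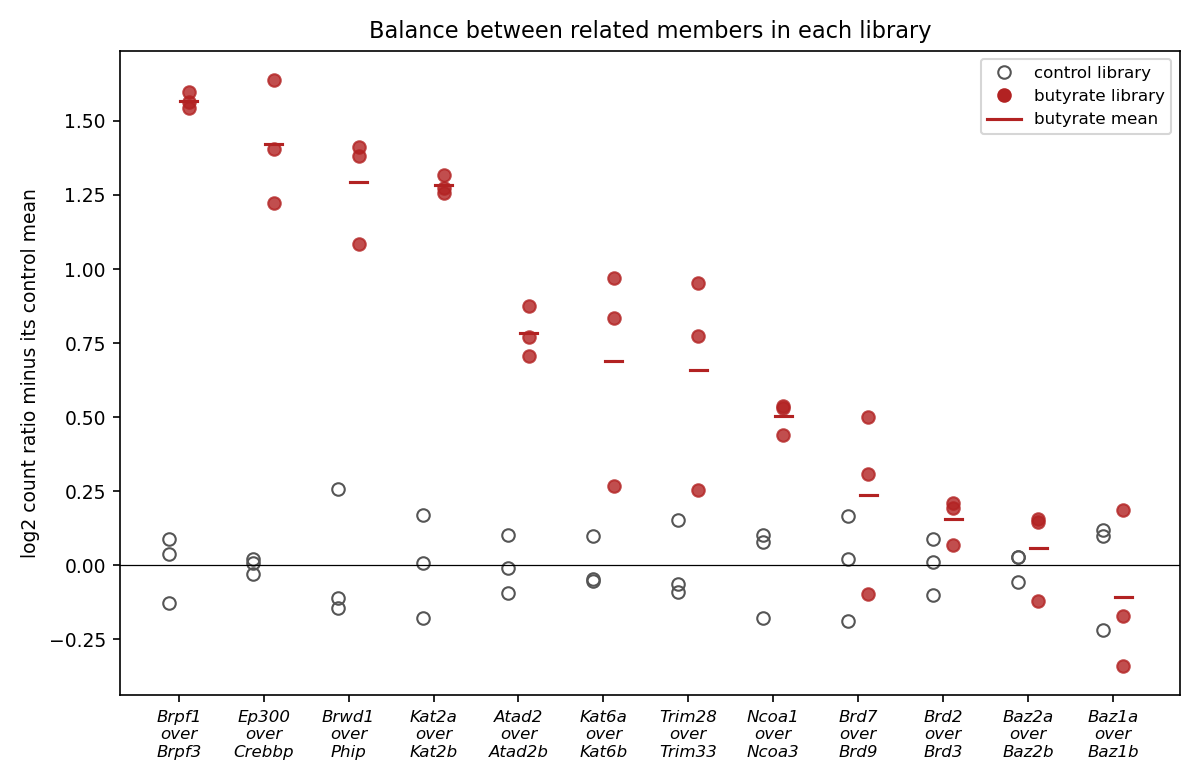
Each point is a library's log2 ratio of counts between related members, less the control mean of that pair, with open circles for control, filled circles for butyrate and a short bar for the butyrate mean. The libraries of the groups do not overlap in 8 of 12 pairs, with the widest gaps for Brpf1 over Brpf3, Ep300 over Crebbp, Brwd1 over Phip and Kat2a over Kat2b. The share without overlap over pairs of other genes was not taken.

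Per kilobase of exon, the members spanned a wide range of levels. The order in control opened with Baz1b at 81.7 ± 7.77 CPM per kb, Brd2 at 75.3 ± 1.79 and Trim28 at 74.0 ± 10.2, 3 neighbours within each other's spread, then Naa10 at 64.3 ± 3.97 and Kat7 at 53.4 ± 1.53. At the low end of the tested members stood Crebbp at 4.23 ± 0.176 CPM per kb, Baz2b at 3.84 ± 0.146, Kat6b at 3.32 ± 0.206 and Brwd1 at 2.45 ± 0.291. The uncalled members thus included the 4 with the highest level per length, and Ep300, at 21.9 ± 0.968 CPM per kb, stood far above Crebbp.

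With butyrate, Trim28 was first at 86.4 ± 15.8 CPM per kb, followed by Brd2 at 69.7 ± 8.91 and Baz1b at 68.5 ± 4.47, which lay within each other's spread. Kat6b became the last tested member, at 1.47 ± 0.393 CPM per kb beside Crebbp at 1.72 ± 0.250, and Brwd1 rose to 3.69 ± 0.217. Ep300 moved from place 15 to place 9 of 37 and reached 24.0 ± 0.511 CPM per kb. Brpf3 moved from place 28 to 33, at 10.3 ± 0.793 and 3.28 ± 0.204 CPM per kb. Kat2b moved from 26 to 31, at 11.4 ± 1.52 and 4.54 ± 0.313 CPM per kb.

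**Figure D4:**
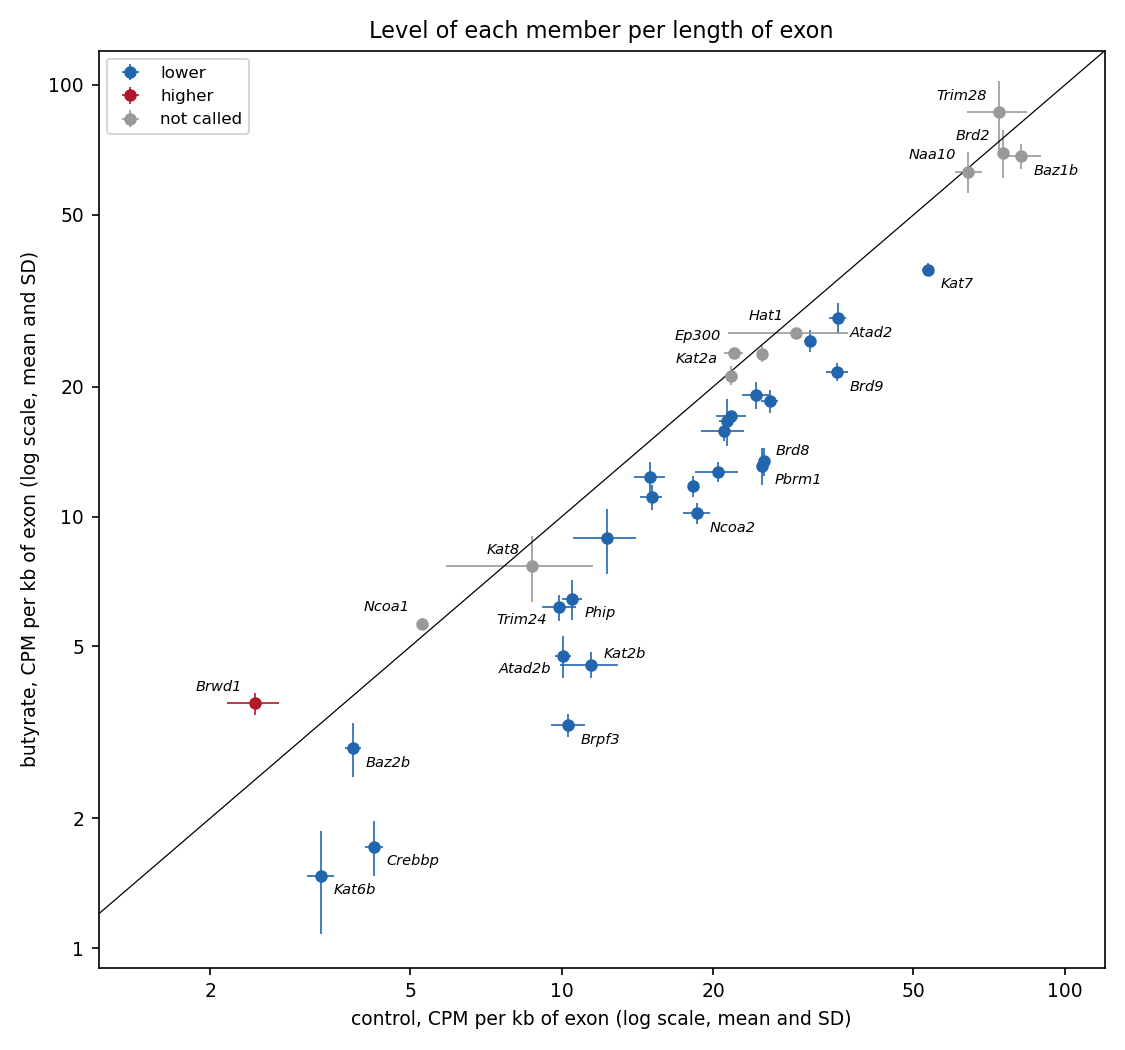
Each point is a tested member, with its mean CPM per kilobase of exon in control on the horizontal and with butyrate on the vertical axis, both on log scales, and bars of 1 SD (n = 3). Colours give the call by edgeR and the line marks equal levels. Most members lie under the line, with Brpf3, Kat2b, Crebbp and Kat6b farthest below it and Brwd1 above it.

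The proteins that work with the members were counted over whole lists, to be read against the 22.5% of all tested genes that fell and the 23.5% that rose. Of 31 partners of the MYST enzymes, 19 fell (61.3%) and 1 rose (3.23%), with a median log2 change of -0.42. Epc1 and Epc2, scaffolds of the TIP60 complex that holds Kat5 and Brd8, went from 66.1 ± 4.38 to 22.7 ± 1.67 CPM (log2 change -1.54, edgeR adjusted p = 3.14e-05) and from 39.3 ± 1.53 to 16.0 ± 2.58 CPM (log2 change -1.29, adjusted p = 0.000132). Phf20, a reader in the NSL complex of Kat8, rose from 54.5 ± 1.27 to 81.7 ± 1.60 CPM (log2 change 0.58, adjusted p = 0.000451). The summed level of this list was 2832 to 2951 CPM in control against 2000 to 2196 CPM with butyrate.

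Of 24 partners of Kat2a and Kat2b, 6 fell (25.0%) and 4 rose (16.7%), shares close to the 22.5% and 23.5% of all tested genes, with a median log2 change of 0.01. Atxn7, of the SAGA deubiquitinase module, went from 72.7 ± 4.48 to 37.1 ± 9.12 CPM (log2 change -0.97, edgeR adjusted p = 0.00117), and Supt20, a SAGA core subunit, from 26.1 ± 2.90 to 14.8 ± 3.05 CPM (-0.81, adjusted p = 0.00426). Tada2a, the adaptor of the ATAC complex, rose from 17.7 ± 1.30 to 30.8 ± 4.58 CPM (log2 change 0.79, adjusted p = 0.00187). Usp22, the SAGA deubiquitinase, rose from 90.3 ± 5.70 to 122 ± 2.27 CPM (log2 change 0.43, adjusted p = 0.0024). The sum of the list was 1788 to 1918 CPM in control against 1799 to 1909 CPM with butyrate, almost the same range.

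Among other subunits of the remodelers, 11 of 22 tested fell and 1 rose, against 22.5% and 23.5% of all tested genes (median log2 change -0.30). Smarcc2, a core SWI/SNF subunit, went from 182 ± 14.4 to 106 ± 3.73 CPM (log2 change -0.78, edgeR adjusted p = 0.000191). Arid1a, the DNA-binding subunit of the BAF form, went from 397 ± 22.8 to 235 ± 31.5 CPM (log2 change -0.76, adjusted p = 0.000738). Dpf1, a BAF subunit known from neurons, was the gene that rose, from 0.591 ± 0.298 CPM, near the limit of a count of 0, to 3.66 ± 0.139 CPM (adjusted p = 0.000667).

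Of other acetyltransferases and acetyl-lysine readers, 8 of 29 tested fell (27.6%, near the 22.5% of all tested genes) and 4 rose (13.8%, against 23.5%), with a median log2 change of -0.07. Esco2, which acetylates cohesin during DNA replication, went from 125 ± 9.76 to 80.8 ± 6.03 CPM (log2 change -0.63, edgeR adjusted p = 0.000802), and Sp100, a nuclear body protein, from 174 ± 22.6 to 103 ± 9.87 CPM (-0.75, adjusted p = 0.000962). Naa25, the auxiliary subunit of the NatB complex, rose from 19.9 ± 2.38 to 31.9 ± 2.48 CPM (log2 change 0.68, adjusted p = 0.00248). Mllt3, a YEATS domain reader of the super elongation complex, rose from 79.6 ± 3.05 to 109 ± 8.09 CPM (log2 change 0.45, adjusted p = 0.00279). The difference between the lists was not tested.

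Genes that supply or use acetyl-CoA, the substrate of the acetyltransferases, fell in 7 of 11 cases and rose in 1, against 22.5% and 23.5% of all tested genes. Acss1 and Acss2, which make acetyl-CoA from acetate in mitochondria and in the cytosol and nucleus, went from 58.3 ± 10.3 to 22.9 ± 2.70 CPM (log2 change -1.35, edgeR adjusted p = 0.000195) and from 31.0 ± 1.48 to 15.9 ± 2.46 CPM (-0.96, adjusted p = 0.000614). Crat, which moves acetyl groups between CoA and carnitine, rose from 12.3 ± 2.43 to 19.0 ± 1.09 CPM (log2 change 0.62, adjusted p = 0.0137). Over all 5 lists, 51 of 117 tested genes fell (43.6%) and 11 rose (9.40%), with a median log2 change of -0.21.

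Markers of other spleen cells summed to at most 96.5 CPM for each list in any library. Calls among the markers are to be read against the 22.5% of all tested genes that fell and the 23.5% that rose. The 10 B cell markers summed to 16.0 to 21.6 CPM in control against 14.2 to 22.4 CPM with butyrate (1 of 2 tested higher, Cd22), with Pax5 at 0 in every library. Cd79b, the most abundant of them, stood at 13.4 ± 3.79 and 11.9 ± 2.89 CPM and was not called. Macrophage and dendritic cell markers, 15 genes, summed to 21.9 to 78.5 and 82.7 to 96.5 CPM. There 1 of 4 tested rose, Itgam, from 4.08 ± 0.682 to 44.1 ± 9.50 CPM, with Siglech at 0 in every library and Mrc1 and Adgre1 at most 0.185 and 0.324 CPM. Lyz2 ran from 8.35 to 45.6 CPM in control and from 10.2 to 37.7 CPM with butyrate. Itgax stood at 10.4 ± 4.53 and 11.0 ± 2.96 CPM, and neither gene was called. The 6 NK cell markers summed to 13.1 to 23.7 and 25.5 to 40.9 CPM (2 of 3 tested higher, Klrb1c and Klre1), with Ncr1 at most 0.185 CPM. Klri2, the most abundant of them, stood at 12.5 ± 5.67 and 17.1 ± 6.66 CPM and was not called.

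The 4 markers of CD4 T cells summed to 6.48 to 10.9 CPM in control against 14.4 to 18.3 CPM with butyrate (2 of 3 tested higher, Izumo1r and Cd4, the latter at 0.608 ± 0.737 and 4.63 ± 0.842 CPM). The 8 granulocyte markers summed to at most 0.973 and 8.13 CPM (1 tested, Cxcr2, higher), with Camp and Ltf at 0 in every library. The 7 erythroid markers reached at most 1.44 CPM in control against 7.22 to 42.9 CPM with butyrate (2 tested, Hbb-b1 and Epor, both higher). Of the 11 T cell markers Cd3e, Cd247 and Lck were lower (27.3%, near the 22.5% of all tested genes) and 0 higher (against 23.5%). Their median log2 change was -0.43, from -0.90 for Cd3g to 0.31 for Trac, both not called. The median of the members was -0.41. The members' sum went from 4851 ± 152 to 3807 ± 173 CPM beside these changes, and the part of other cells in it was not tested.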

How the data were processed

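RNA of 3 control and 3 butyrate samples was extracted with Trizol and made into TruSeq libraries, per the labels' protocols. The authors deposited raw read counts, 1 column for each library and 1 row for each gene number. Per the submitters' processing notes, CASAVA, TopHat, Picard, featureCounts, Subread and edgeR were used on mm10. The sources used here give no versions, strand setting or treatment of shared reads. Gene numbers were named from RefSeq (GRCm38.p6, 25275 of 27179) and GENCODE (18), and the 1886 unnamed numbers, with 0.961% to 1.20% of the counts, stayed in the tests. RefSeq gave the coordinates (1-based), and GENCODE exons merged per gene the exon lengths.

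The groups were compared with edgeR 4.0.16 in R 4.3.3 (glmQLFTest, the quasi-likelihood F test), using TMM scaling, filterByExpr and Benjamini-Hochberg adjustment over 11740 genes, and a gene is called at an adjusted p under 0.05. A standard error is the size of the log2 fold change over the square root of F. Paralog ratios used a prior count of 2. Whether replicates were separate mice or cultures is not in the labels. The p-values therefore set the group difference only against the spread among these samples, and that spread may be technical. Every 2 libraries of a group differed beyond counting noise (chi-square over its degrees of freedom 5.43 to 10.6), so none was treated as a library deposited again, which does not show that they are independent.

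Replicate numbers are shared between the groups. Deviations from the group means correlated at 0.36, 0.20 and 0.35 between libraries of the same number and at -0.30 to -0.07 otherwise. Deviations within a group cancel out, so positive values at the same number force the others to be negative on average. The negative values are thus no separate evidence of pairing. From the values at the same number, and not from the labels, the numbers were taken to pair the samples in the replicate block alternative only. The main edgeR fit, its standard errors and calls, and the permutation test of the paralog ratios did not use the numbers.

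The members, the partner and marker lists, the pairs and the alternatives were chosen with earlier results of these data known. Every member is described, and of each partner list up to 2 called genes per direction with the smallest p are named. The single markers of dividing cells, of other cells and of T cells other than Cd8a were named after their values were seen. Some genes of the lists are not reported here by name. Alternatives were scaling by RLE, by upper quartile, by totals alone or by TMM from all but the 50 most abundant genes, a filter of 5 CPM in at least 3 libraries or none, limma voom (3.58.1), DESeq2 (1.42.0), robust edgeR, the replicate block, each library left out, glmTreat against a fold of 1.5 and a prior count of 0.5 for the ratios.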

Additional observations from a re-analysis of the deposited data

How the results depend on the processing

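Leaving out glmTreat, which asks about a fold of 1.5 and not about any change, 23 to 26 members were called lower under every alternative that kept all libraries, except 19 with upper quartile scaling. Under these alternatives 16.9% (no filter) to 26.4% (replicate block) of all tested genes were called lower, with 17.6% under upper quartile scaling. Without single libraries 20 to 24 were called lower and 1 higher. The replicate block gave 26 lower and 1 higher, adding Baz1b and changing no other member's call. Over all 11740 tested genes the block called 3095 lower and 3220 higher, against 2637 and 2756 in the main fit. Members called higher numbered 1, save 2 with upper quartile scaling, which added Ep300. With glmTreat, 8 members were lower and 0 higher, 489 tested genes lower and 1104 higher, and 10 partner genes were called rather than 62. Without single libraries 2118 to 2552 genes (17.6% to 21.4% of those tested) were lower and 2369 to 2633 higher. Partner genes called there numbered 49 to 57. Paralog pairs without overlap numbered 8, or 8 to 10 without single libraries.

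Of 612 fold changes of members under alternatives, 553 kept direction and call, 48 lost a call, 3 gained one and 8 turned direction, none of the latter in a called gene. The turns, as log2 fold changes of uncalled genes, were 0.053 for Kat2a, 0.052 for Naa10 and 0.015 for Brpf1 with upper quartile scaling. Without single libraries Kat8 ran from -0.35 to 0.10, Hat1 from -0.25 to 0.11 and Naa10 from -0.12 to 0.025, with the highest value of each without control replicate 2. Naa10 was at 0.02 without butyrate replicate 2 and at 0.005 without butyrate replicate 3. The causes were not tested. Kat8 and Kat6b, with 48 to 160 counts a library, had the fewest counts among tested members and the largest standard errors, 0.242 and 0.179. Hat1, with 250 to 390 counts, had a standard error of 0.165, and the part of depth was not tested.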
